A study of Mus musculus with 18 samples.

Results

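The 10 heat shock protein and chaperone genes described here are Hspa1a, Hspa1b, Hspa8, Hspa5, Hsp90aa1, Hsp90ab1, Dnaja1, Dnajb1, Hsph1 and Hspd1, out of 50600 genes in the count table. They were chosen by the measured thymic values, because Hspa1a and Hspa1b fall strongly in thymic regulatory T cells (Tregs) that lack CD25, so the thymic values below are given as a description, and only the splenic mice, which took no part in the choice, give a test of the 10 genes. CD25 is the α-chain of the interleukin-2 receptor and is encoded by Il2ra.

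RNA was sequenced from Foxp3+ Tregs sorted from single C57BL/6 mice, and the study compared CD25-deficient with CD25-sufficient Tregs in each tissue on its own. Thymic Tregs came from 5 Foxp3/RFP reporter mice, which are wild type (WT) for CD25, and from 5 Treg-targeted conditional KO mice of the genotype CD25 flox/Foxp3-YFP/Cre, all 3-4 weeks old. The thymic KO mice had been "cured" of autoimmunity by an injection of WT splenocytes into the vein shortly after birth, so their thymus also held donor Tregs, while the labels give no such transfer for the WT mice. Splenic Tregs came from 4 reporter mice with WT CD25 and from 4 KO mice (CD25 flox/Foxp3eGFP-Cre-ERT2/R26Y). Both WT and KO mice were given tamoxifen at 7-10 weeks of age, and the cells were collected 10-14 days later. In the KO mice tamoxifen removes CD25 from Foxp3-expressing cells. In both KO lines Cre is expressed from Foxp3 and is therefore limited to Tregs. In the thymus the KO mice thus differ from WT not in CD25 alone but also in Cre, reporter line and curing. The parts of these cannot be told apart. In the spleen the paper describes the WT mice as reporter controls, and it tracked YFP-labeled cells in them as in the KO mice. Tregs were sorted on their reporter, and whether any donor Tregs entered the thymic KO samples was not tested. The tissue, the age, the Cre line, the tamoxifen, the curing and the date written in the headers of the count table, which is 1 date for each tissue, go together in this design. Their parts in any difference between thymus and spleen cannot be told apart.

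Heat shock proteins are molecular chaperones that bind unfolded stretches of other proteins, and help them fold, reach a compartment or be degraded. Heat shock factor 1 (HSF1) switches many of them on when unfolded protein accumulates, by binding heat shock elements made of alternating GAA and TTC units in their promoters. A parallel system, the unfolded protein response, acts for chaperones of the endoplasmic reticulum (ER). Lymphocytes use the same chaperones while they grow and divide.

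The promoter sequences are shown because Hspa1a and Hspa1b, which moved most, are neighbors with nearly the same sequence before their starts. RefSeq promoter windows of build GRCm38.p6 were found for 7 of the 10 genes, and Hspa8, Hsp90aa1 and Hsp90ab1 had no window in that table. The 250 bases before the start of each gene of the pair are printed on the minus strand, with the heat shock dyad GAANNTTC in capitals, from chr17:34972157-34972406 for Hspa1a and from chr17:34959239-34959488 for Hspa1b. They were identical at 247 of 250 positions (98.8%), and each holds 1 dyad that begins 104 bases before the start.
Hspa1a: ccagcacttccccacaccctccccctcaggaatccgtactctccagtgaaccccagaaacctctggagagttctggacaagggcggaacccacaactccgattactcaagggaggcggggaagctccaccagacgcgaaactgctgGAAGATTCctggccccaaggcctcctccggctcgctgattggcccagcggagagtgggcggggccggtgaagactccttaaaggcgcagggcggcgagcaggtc
Hspa1b: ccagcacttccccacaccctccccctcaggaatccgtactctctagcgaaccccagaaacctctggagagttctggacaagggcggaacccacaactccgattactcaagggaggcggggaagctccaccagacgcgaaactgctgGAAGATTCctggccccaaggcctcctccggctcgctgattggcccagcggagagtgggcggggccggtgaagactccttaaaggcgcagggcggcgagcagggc

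For the other genes with an element, 30 bases around it are shown with the element in capitals, to let the forms be compared. A dyad was searched as GAANNTTC and as TTCNNGAA, each of which reads the same on both strands, and a 3-unit element was counted where one dyad of each kind shared 1 unit. The ER stress element was searched on both strands as CCAAT, 9 bases of any kind and CCACG. The stretches are chr4:40722333-40722362 on the plus strand for Dnaja1, chr5:149636351-149636380 on the minus strand for Hsph1, chr1:55088053-55088082 on the minus strand for Hspd1 and chr2:34772020-34772049 on the plus strand for Hspa5.
Dnaja1: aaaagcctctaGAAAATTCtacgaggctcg
Hsph1: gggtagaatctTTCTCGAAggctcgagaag
Hspd1: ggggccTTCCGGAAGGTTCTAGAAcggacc
Hspa5: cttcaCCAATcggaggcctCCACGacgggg

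A dyad was present in 6 of the 12 windows of the 7 genes, beside 12.8% of 32851 promoter windows of all genes. These 6 windows belong to 5 genes, among them the near-identical pair Hspa1a and Hspa1b. The 2 windows of Hsph1 overlap and hold the same dyad, 33 and 54 bases before their starts, so it is counted in both. Hspd1, in 1 of its 2 windows, had 3 dyads that run into each other, so that its 4 units make 2 overlapping 3-unit elements, and 0.466% of all windows hold at least 1 such element. Hspa5, which encodes the ER chaperone BiP, had no dyad and was the only gene of the 7 with the ER stress element, which 0.113% of all windows hold. Dnajb1 had neither kind of element in its 2 windows. A match describes these letters and does not show that a factor binds there.

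The library totals ranged from 17239774 to 23993674 counts in the thymus and from 25258341 to 32639570 in the spleen. Levels are given as CPM, the count of a gene scaled by the normalized size of its library. Foxp3, Ikzf2 and Cd4 were at 198 CPM or more in every library, and Il2ra was at 537 to 702 CPM in thymic WT Tregs against 99.0 to 291 CPM in KO, with KO mice 2 and 4 the highest at 291 and 243 CPM. In the spleen Il2ra was at 473 to 522 CPM in WT and 162 to 202 CPM in KO. Whether the Il2ra reads of KO mice come from outside the deleted part cannot be told from a count per gene. The paper reports that the remaining transcripts in KO Tregs lacked the exon that Cre removes, and it illustrates this for splenic Tregs. Of 7 Treg and T cell markers, 4 were called lower in thymic KO by edgeR, Il2ra (log2 fold change -1.90), Foxp3 (-0.74), Tnfrsf18 (-0.44), which encodes the costimulatory receptor GITR, and Cd3e (-0.43). In splenic KO 2 were called lower, Il2ra (-1.49) and Foxp3 (-0.55), and 3 higher, Ikzf2 (0.37), Cd4 (0.32) and Cd3e (0.24). Summed over 7 markers, immature thymocyte genes reached 187 CPM in thymic WT mouse 4, against 43.2 to 79.5 CPM in the other WT mice and 49.2 to 106 CPM in KO, and Rag1, Rag2 and Ptcra were at 3 counts or fewer in every splenic mouse. Macrophage and dendritic cell markers, 6 genes in all, summed to 11.3 to 35.2 CPM in thymic WT and to 8.25 to 23.8 CPM in thymic KO, and 5 erythroid markers to 14.2 to 35.7 CPM and 8.75 to 45.9 CPM, so both lists overlapped between the thymic groups. In the spleen the macrophage and dendritic cell sum was 16.5 to 22.1 CPM in WT and 22.5 to 28.8 CPM in KO, without overlap. Of its 4 tested genes 1 was called higher by edgeR, Lyz2 (log2 fold change 1.03). Csf1r (-0.24), Cd68 (0.06) and C1qa (0.26) were not called. Of 3 tested B cell markers 1 was called higher in splenic KO, Pax5 (1.04), while Cd79a (-0.45) and Cd79b (0.02) were not called. Because these are bulk samples, fewer cells of a kind and less RNA per cell cannot be told apart.

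Per length of transcript, the 10 genes kept nearly the same order in all 4 groups. Levels between genes are compared as CPM per kb of exonic length. The genes differ in how many stretches of 75 bases of their transcripts also occur in another gene. The share was 61.7% for Hspa1a, 55.8% for Hspa1b, 42.8% for Hsp90aa1, 33% for Hspa8, 31% for Hspd1 and 18.4% for Dnaja1. It was 0.537% for Hsp90ab1 and 0% for Hspa5, Dnajb1 and Hsph1. How reads with several matches were counted is not given, and their part in the order was not tested. Hsp90ab1, the constitutive cytosolic Hsp90, was highest, with means from 307 CPM per kb in thymic KO to 417 CPM per kb in thymic WT. Hspa8, the constitutive Hsp70 known as Hsc70, was next at 168 to 183 CPM per kb, and its range lay apart from that of Hsp90ab1 in every group. Hspa5 and Hsp90aa1 followed, with overlapping ranges in the thymus (81.3 and 82.0 CPM per kb in WT) and separate ones in the spleen (104 and 53.1 CPM per kb in WT). Hspd1, Dnajb1, Dnaja1 and Hsph1 had means of 8.13 to 56.6 CPM per kb, with Dnajb1 and Dnaja1 overlapping in every group but splenic KO. Hspa1b and Hspa1a were last in every group. Their means were 3.99 and 1.25 CPM per kb in thymic WT, and 0.0937 to 0.199 CPM per kb for Hspa1b and 0.0225 to 0.0430 CPM per kb for Hspa1a in the other 3 groups.

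Among the 10 genes the pair Hspa1a and Hspa1b, the stress-inducible cytosolic Hsp70 genes, differed most between thymic WT and KO Tregs. The thymic WT mice 1 to 5 had 40, 191, 141, 13 and 31 counts of Hspa1a, and the KO mice 1 to 5 had 0, 1, 4, 3 and 3 counts. For Hspa1b the WT mice had 117, 623, 370, 50 and 94 counts and the KO mice 7, 15, 11, 13 and 9 counts. Every WT mouse was above every KO mouse for both genes, and WT mice 2 and 3 were the highest for both. WT mouse 4, the lowest of the WT mice for both genes, is the one with the most immature thymocyte RNA, and the part of those cells in its level was not tested.

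The genes lie on the minus strand of chromosome 17 in GRCm38, Hspa1a at 34969190-34972156 and Hspa1b at 34956436-34959238, and their transcripts share so much sequence that the split of reads between them is uncertain. Of all stretches of 75 bases in Hspa1a transcripts, 52.7% also occur in Hspa1b. Gm20481 lies on the opposite strand of Hspa1a, and whether the counting used strand was not stated, so reads of the pair cannot be assigned by strand. The sum of both genes does not depend on the split. It was 7.81, 34.7, 23.5, 2.96 and 5.45 CPM in thymic WT mice 1 to 5 and 0.356, 0.768, 0.841, 0.748 and 0.652 CPM in KO mice 1 to 5. The mean was 14.9 ± 13.7 CPM (SD, n = 5) in WT and 0.673 ± 0.190 CPM (SD, n = 5) in KO, or 4.52% of the WT mean, and the log2 fold change was -4.46 (SE 0.688). The WT mice differed from each other far more than the KO mice did, and the lowest WT mouse was still above the highest KO mouse.

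In the spleen the pair was close to the detection limit in both groups. Hspa1a had 1, 1, 1 and 4 counts in WT mice 1 to 4 and 4, 3, 2 and 6 counts in KO mice 1 to 4. Hspa1b had 0, 9, 13 and 25 counts in WT and 10, 3, 9 and 8 counts in KO. Neither gene passed the filter on low counts, and the groups overlapped for both. Summed, the pair had 0.520 ± 0.450 CPM (SD, n = 4) in WT and 0.390 ± 0.130 CPM (SD, n = 4) in KO, with a log2 fold change of -0.40 (SE 0.544), and a difference between splenic groups was not detectable at this depth. The thymic KO values of the sum, 0.356 to 0.841 CPM, fell within the range of 0.0376 to 1.11 CPM of the splenic WT mice, although each tissue was normalized on its own.

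**Figure D1:**
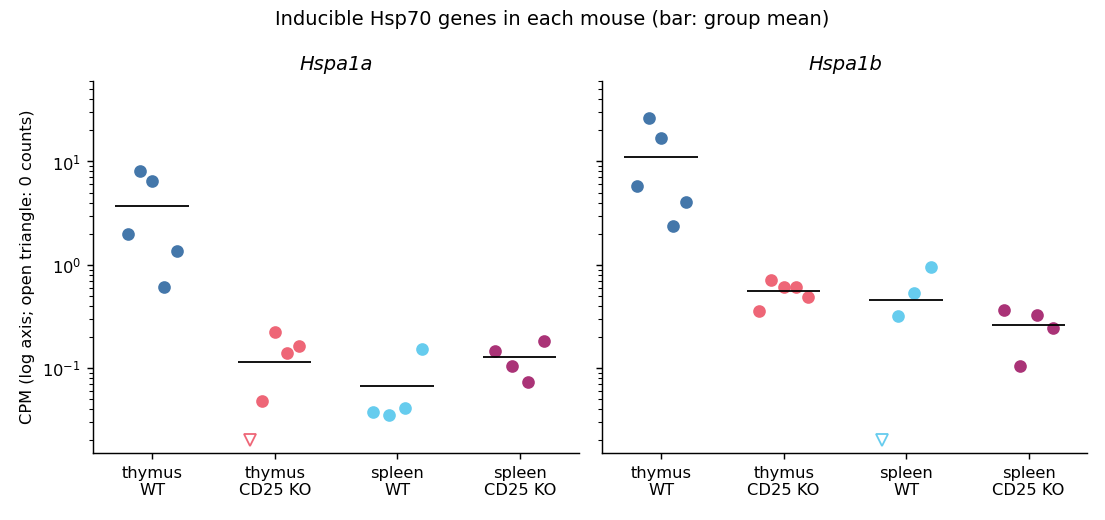
CPM of Hspa1a (left) and Hspa1b (right) in each mouse of the 4 groups on a log axis, where each point is a mouse, the bar is the group mean and an open triangle marks a mouse with 0 counts. The 5 thymic WT mice lie above all other mice, with Hspa1b between 2.35 and 26.6 CPM.

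Of the co-chaperones that work with Hsp70, Hsph1 and Dnajb1 were lower in every thymic KO mouse than in any WT mouse. Hsph1 encodes Hsp110, which releases nucleotide from Hsp70, and had 122, 164, 145, 149.6 and 188 CPM in thymic WT mice 1 to 5 and 54.4, 95.3, 76.0, 95.8 and 118 CPM in KO mice 1 to 5. The groups came close to each other, since KO mouse 5 lay just under WT mouse 1, and the log2 fold change was -0.81 (SE 0.174). Dnajb1 encodes Hsp40, a J-domain protein that brings substrates to Hsp70. It had 107, 146, 129.8, 103 and 153 CPM in WT and 76.4, 86.0, 78.6, 84.5 and 81.9 CPM in KO, and the log2 fold change was -0.65 (SE 0.103). The KO mice were close together, with an SD of 4.00 CPM against 22.4 CPM in WT. Dnaja1, another J-domain partner of Hsp70, overlapped between the groups, with 257 to 317 CPM in WT and 179 to 264 CPM in KO.

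Of the cytosolic Hsp90 genes, Hsp90ab1 was lower in every thymic KO mouse than in any WT mouse. It had 1169, 1369, 1210.2, 1155 and 1346 CPM in thymic WT mice 1 to 5 and 849.8, 1001, 861, 959 and 926 CPM in KO mice 1 to 5. The groups did not overlap, and the log2 fold change was -0.44 (SE 0.0700). Hsp90aa1, the inducible cytosolic Hsp90, had 264 to 359 CPM in WT and 182 to 265 CPM in KO, an overlap by KO mouse 2 and WT mouse 4 alone. Its log2 fold change was -0.49 (SE 0.112).

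In the mitochondrion, Hspd1 encodes the chaperonin Hsp60. It had 148, 149.9, 145, 144 and 161 CPM in thymic WT and 94.4, 123, 96.0, 122 and 119 CPM in KO, without overlap and with a log2 fold change of -0.43 (SE 0.0823). Hspa8 and Hspa5 did not follow the others. Hspa8 had 620.1 to 845 CPM in WT and 647 to 930.4 CPM in KO (log2 fold change 0.08, SE 0.118), and Hspa5 had 286 to 366 CPM in WT and 280.4 to 328 CPM in KO (-0.16, SE 0.0751).

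In all, 6 of the 10 genes, Hspa1a, Hspa1b, Hsph1, Dnajb1, Hsp90ab1 and Hspd1, were past an adjusted p of 0.01 as lower in thymic KO in edgeR's quasi-likelihood fit of 16986 genes. Of all genes in that fit, 2.99% were called lower and 3.17% higher. No member was called higher by edgeR, at an unadjusted p of 0.05 or by DESeq2. Since the members were chosen with this contrast known, the count is a description. Their median log2 fold change was -0.46, against -0.002 for all genes. Without KO mouse 1, or without KO mouse 3, 3 members were called (Hspa1b, Dnajb1 and Hsp90ab1). Without both KO mice with more Il2ra, 6 were called, with Hsp90aa1 newly called and Hsph1 no longer called.

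**Figure D2:**
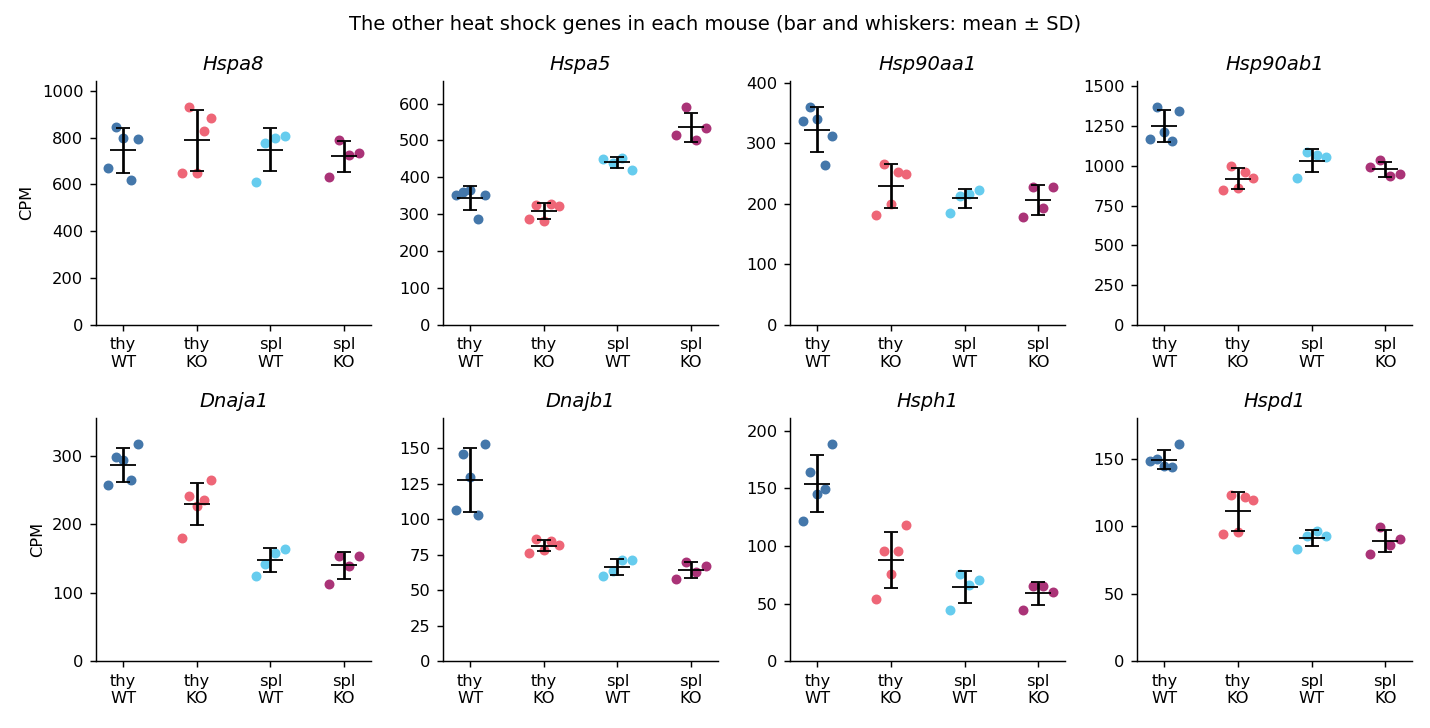
CPM of the other 8 genes in each mouse, on axes that start at 0, for thymic (thy) and splenic (spl) WT and KO Tregs, with the mean and SD in black. Dnajb1, Hsph1, Hsp90ab1 and Hspd1 show separate thymic groups and overlapping splenic groups, and Hspa5 shows the reverse.

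In splenic Tregs 1 of the 8 members that passed the filter rose in KO, and it was the ER chaperone Hspa5. Hspa5 had 451, 438, 453 and 420.1 CPM in splenic WT mice 1 to 4 and 515, 590.2, 502 and 532 CPM in KO mice 1 to 4, so every KO mouse was above every WT mouse. The log2 fold change was 0.28 (SE 0.0568, adjusted p = 0.00268, edgeR's quasi-likelihood test). No member was called lower by edgeR, none had an unadjusted p under 0.05 in that direction, and DESeq2 called none lower. Over all 17463 genes of this fit, 3.55% were called lower and 5.9% higher. Hspa5 was no longer called without WT mouse 2 (adjusted p = 0.0120), without WT mouse 4 (adjusted p = 0.0159) or with all 18 samples in 1 edgeR fit (adjusted p = 0.0225), and over all alternatives its adjusted p ran from 4.09e-05 (DESeq2) to 0.0225 (edgeR). The summed macrophage and dendritic cell markers were higher in splenic KO, with Lyz2 the only called gene among them. The part of RNA from such cells in the Hspa5 difference was not tested.

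The remaining 7 splenic members had log2 fold changes between -0.12 and -0.01, and their groups overlapped. For Hsph1 the splenic value was -0.12, with a 95% interval from -0.41 to 0.17, from the SE and the degrees of freedom of the edgeR fit. For Dnajb1 it was -0.05 (-0.20 to 0.11), for Hsp90ab1 -0.08 (-0.21 to 0.05) and for Hspd1 -0.04 (-0.18 to 0.11). The thymic values of the same genes are -0.81, -0.65, -0.44 and -0.43. No test of the difference between tissues is given for the members, because the thymic contrast chose them.

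**Figure D3:**
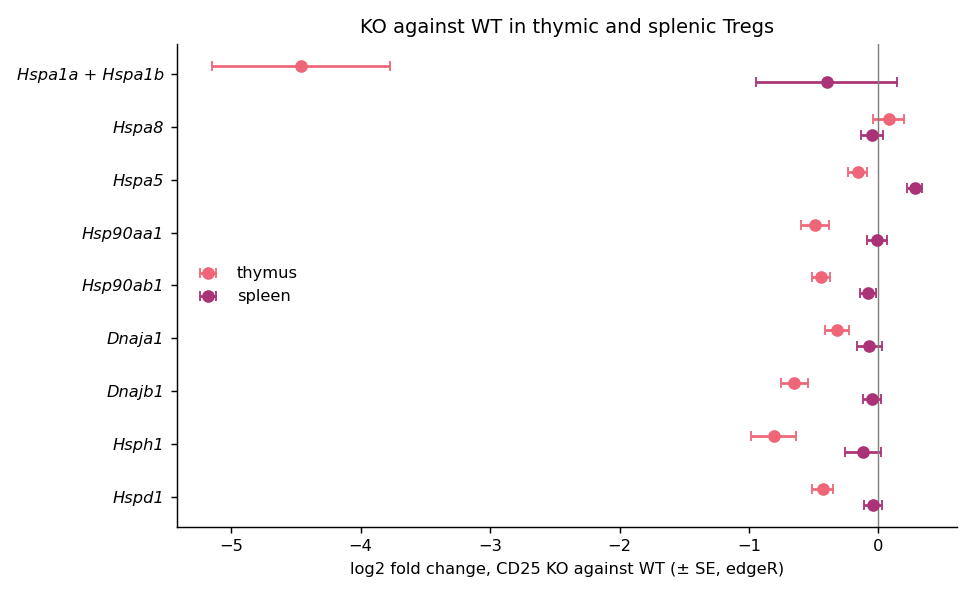
Log2 fold change of CD25 KO against WT with its SE for the sum of Hspa1a and Hspa1b and for the other 8 genes, in thymic and splenic Tregs. The pair lies at -4.46 in the thymus, most other thymic values lie between -0.16 and -0.81, and splenic Hspa5 is the point clearly above 0.

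Within the groups, the 8 more abundant genes varied together from mouse to mouse and the pair varied more on its own. Pearson's r of deviations of log2 CPM from the group means, over 18 mice, had a median of 0.73 (0.31 to 0.88) over the 28 pairs of these 8 genes. With Hspa1a or Hspa1b, the same genes had a median r of 0.38 (0.05 to 0.55) over 16 pairs. For the summed pair the highest value among the other members was 0.56 for Hspa8, which ranked 271 of 12936 genes. The genes most like the pair were Brpf3 (0.82), Kif3c (0.79), Arid1a (0.78), Glyr1 (0.78) and Rpl14-ps1 (0.76). The points share their libraries and depth scaling, so these are descriptions without a test. The variation of Hspa1b was largest in thymic WT and splenic WT mice, and that of Hspa1a in thymic WT mice. Hspa1b spanned 3.45 log2 CPM in thymic WT and 3.82 in splenic WT, where its counts were 0 to 25. Hspa1a spanned 3.54 in thymic WT, 1.74 in thymic KO and 1.06 in splenic WT. The part of counting noise at such low counts in the lower r of the pair was not tested.

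**Figure D4:**
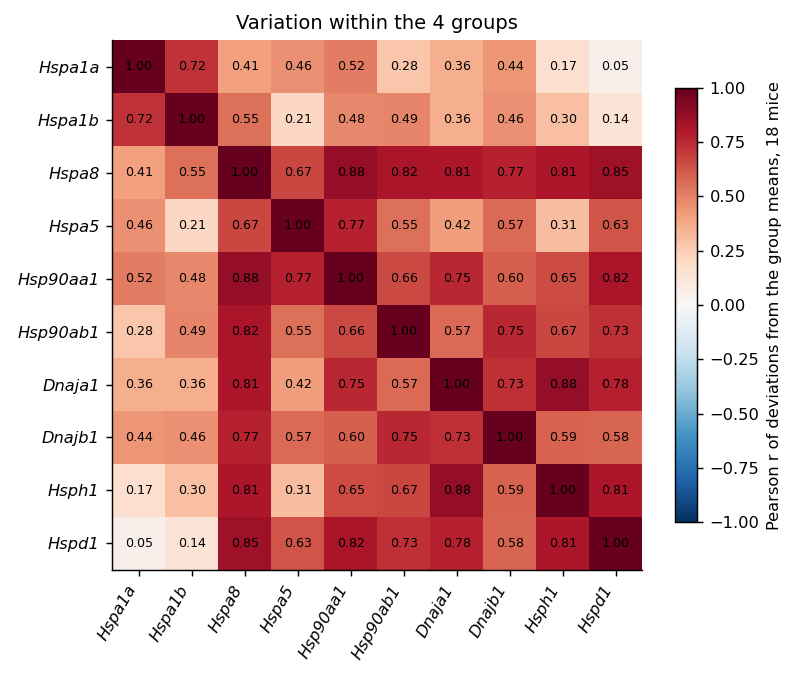
Pearson's r between the 10 genes, computed from deviations of log2 CPM from the group means over 18 mice, with blue for negative and red for positive values. The block of 8 more abundant genes has values of 0.31 to 0.88, and the rows of Hspa1a and Hspa1b are paler against it.

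Chaperone genes outside the 10 were also called lower more often than higher in thymic KO Tregs. Of the genes in 8 chaperone lists 122 were tested in the thymus, and 19 fell and 1 rose by edgeR's quasi-likelihood test at an adjusted p under 0.01, which is 15.6% and 0.82% beside 2.99% and 3.17% of all genes. Their median log2 fold change was -0.14. The gene lists, here and in the paragraphs below, were written with earlier results of these data known. These shares are therefore no independent check of the members. Leaving out a single thymic mouse left 4 to 15 genes lower, with 4 without WT mouse 5 and 5 without WT mouse 2.

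Among genes that respond to HSF1, 4 of 18 tested fell in the thymus (22.2%, beside 2.99% of all genes). All of them are partners of Hsp70, Hsp90 or Hsp60. Bag3, a nucleotide exchange factor that links Hsp70 to autophagy, went from 2.90 CPM in WT to 1.20 CPM in KO (log2 fold change -1.26, SE 0.275, adjusted p = 0.00971, edgeR). Its call was lost in each of the 10 fits that left out 1 thymic mouse, with an adjusted p of 0.0107 to 0.0263 in edgeR. Stip1, the adaptor that joins Hsp70 to Hsp90, went from 124 to 85.2 CPM (-0.54, SE 0.105), and Fkbp4, an immunophilin of Hsp90, from 105 to 77.3 CPM (-0.45, SE 0.0737), and these calls were lost in 8 and 2 of the 10 fits. Hspe1, the Hsp10 lid of Hsp60, went from 70.2 to 53.7 CPM (-0.39, SE 0.0659), and its gene overlaps that of Hspd1 on the opposite strand. Among 26 tested co-chaperones of Hsp70 and Hsp90, 4 fell (15.4%, beside 2.99% of all genes), with Bag3, Stip1 and Fkbp4 among them. The heat shock factors themselves showed no call in either tissue by edgeR at an adjusted p under 0.01. Of the 4 genes 1 had an unadjusted p under 0.05 in the thymus (Hsf2, log2 fold change 0.27), where DESeq2 called it higher, and 2 in the spleen, where DESeq2 called none. Hsf1 itself was at 38.0 CPM in thymic WT and 36.4 CPM in thymic KO.

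Several subunits of the CCT chaperonin, a ring that folds actin and tubulin, fell. Of 14 tested CCT and prefoldin genes 5 fell in the thymus (35.7%, beside 2.99% of all genes). Cct6a went from 161 to 115 CPM (log2 fold change -0.48, SE 0.0757), Cct3 from 159 to 120.5 CPM (-0.40, SE 0.0656) and Cct7 from 154 to 121 CPM (-0.35, SE 0.0666). In the spleen none of the 14 was called by edgeR or DESeq2, and 1 had an unadjusted p under 0.05 in each direction. Of 14 tested mitochondrial chaperones and proteases 3 fell in the thymus (21.4%, beside 2.99% of all genes). They were Hspe1, Hspa9 (-0.37, SE 0.0502), the mitochondrial Hsp70, and Dnaja3 (-0.30, SE 0.0565), its J-domain partner. Among 11 tested genes of the Hsp70, Hsp110 and Hsp90 families 2 fell (18.2%, beside 2.99% of all genes), Hspa9 and Hspa12a. Hspa12a is a distant Hsp70 relative with low values (0.993 to 0.331 CPM, -1.56, SE 0.329). Its call was lost in 9 of the 10 fits without 1 mouse. Of 31 tested J-domain genes Dnaja3 fell and Dnajb9 rose, which is 3.23% each way, near the 2.99% and 3.17% of all genes.

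Most genes of the ER list were called in neither tissue. In the thymus 6 of 24 tested ER genes fell and 1 rose, which is 25% and 4.17% beside 2.99% and 3.17% of all genes. Pdia4, a disulfide isomerase, went from 104 to 75.1 CPM (log2 fold change -0.47, SE 0.0711), Herpud1, a part of the degradation machinery of the ER membrane, from 53.6 to 38.7 CPM (-0.47, SE 0.0568) and Xbp1, a transcription factor of the unfolded protein response, from 65.5 to 48.8 CPM (-0.42, SE 0.0728). Dnajb9, the ER J-domain protein ERdj4, moved the other way, from 24.2 to 48.5 CPM (1.00, SE 0.158), and was the only chaperone gene that rose in the thymus. In the spleen 4 of the 24 rose (16.7%, beside 5.9% of all genes). They were Atf6, an ER stress sensor (38.3 to 55.7 CPM, 0.54, SE 0.0757), Ern1, which encodes the sensor IRE1α (20.02 to 26.1 CPM, 0.38, SE 0.0770), Sdf2l1, a partner of BiP (9.71 to 12.6 CPM, 0.38, SE 0.0914), and the lectin chaperone Calr (393 to 467 CPM, 0.25, SE 0.0534). The call of Sdf2l1 was lost in each of the 8 fits without 1 splenic mouse. None of the 24 fell in the spleen by edgeR or by DESeq2, and 2 were lower at an unadjusted p of 0.05.

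Over all chaperone lists 2 of 122 tested genes fell in the spleen and 7 rose, which is 1.64% and 5.74% beside 3.55% and 5.9% of all genes, so the splenic shares were near or under those of all genes. The genes that fell were Hspbp1, an exchange factor of Hsp70 (log2 fold change -0.35, SE 0.0787), and Trap1, the mitochondrial Hsp90 (-0.22, SE 0.0540). Of the 8 fits without 1 splenic mouse, the call of Trap1 was lost in 8 (adjusted p of 0.0111 to 0.0384, edgeR) and that of Hspbp1 in 5. Besides the 4 ER genes, Hspa2 rose from 2.51 to 4.11 CPM (0.71, SE 0.167), a call lost in 6 of the 8, Dnajc9, a J-domain histone chaperone, from 55.0 to 70.0 CPM (0.35, SE 0.0570) and Fkbp5, an Hsp90 immunophilin that steroid receptors induce, from 87.2 to 117 CPM (0.42, SE 0.0741). With upper-quartile scaling the splenic split was 4 lower and 5 higher, and without WT mouse 3 or 4 it was 0 lower and 4 higher.

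**Figure D5:**
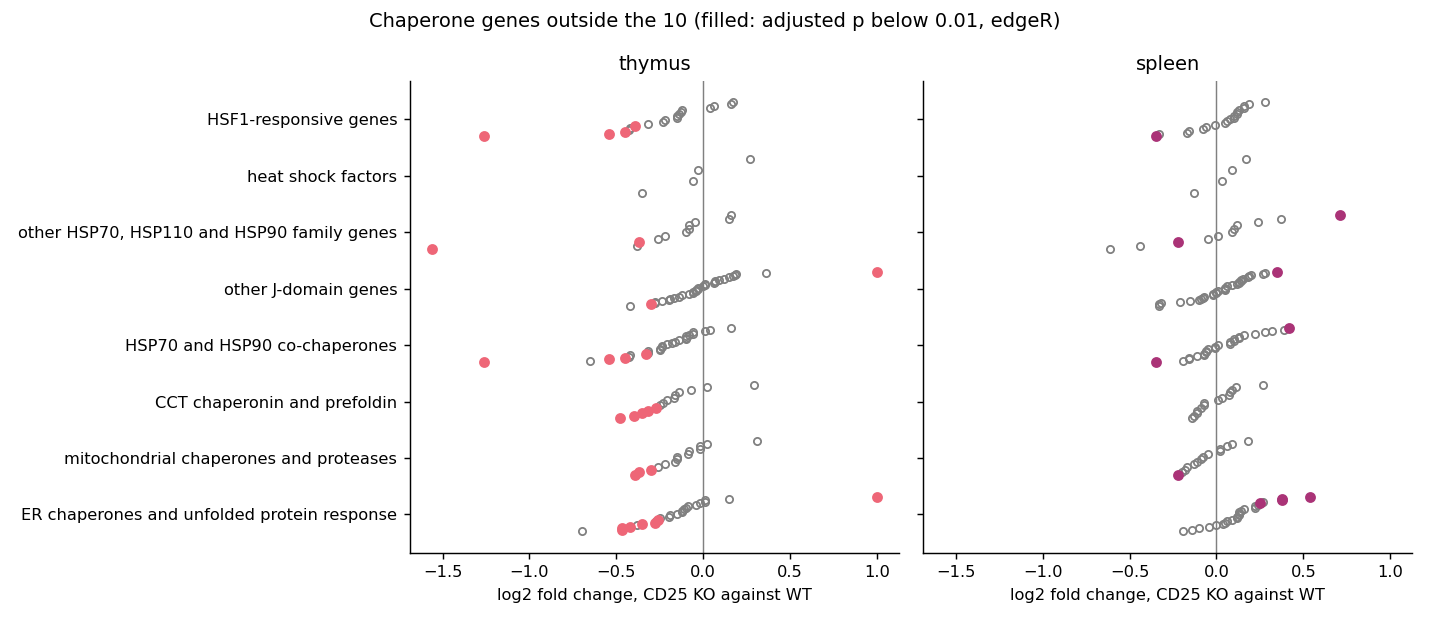
Log2 fold change of CD25 KO against WT for each tested chaperone gene outside the 10, by list, in the thymus (left) and the spleen (right), with filled points for an adjusted p under 0.01. In the thymus 19 of 20 filled genes lie under 0, and in the spleen 7 of 9 lie above it; a gene in 2 lists is drawn in both.

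The difference between KO and WT was itself different between the tissues for 19 of 124 tested genes by the test of the difference itself. In 18 it was more positive in the spleen than in the thymus and in 1 it was more negative, which is 14.5% and 0.806% beside 4.5% and 2.49% of 18686 genes. The largest positive differences on the log2 scale were those of Bag3 (1.40, SE 0.269, adjusted p = 0.00160, edgeR's quasi-likelihood test), Sdf2l1 (1.10, SE 0.244) and Fkbp5 (0.68, SE 0.145). The negative one was that of Dnajb4, a J-domain gene (-0.48, SE 0.114), and its call was lost in 13 of the 18 fits without 1 mouse. ER genes made up 9 of the 18, among them Calr (0.62), Pdia4 (0.62) and Xbp1 (0.49).

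The GC content of the transcripts moved with the thymic fold changes, with a Spearman rho of -0.40 across 16945 genes, against -0.17 across 17423 genes in the spleen. Hspa1a and Hspa1b have GC contents of 58.95% and 58.1%, and Dnaja1 has 41.2%. With the GC trend of each library removed, the thymic log2 fold changes of the members kept their direction, and Dnaja1 moved from -0.32 to -0.55. Over all 16986 thymic genes, 439 were then called lower and 353 higher. The chaperone lists then had 17 genes lower and 0 higher, and 11 of the 20 calls were kept. Bag3, Stip1, Fkbp4, Hspa12a, Dnaja3, Dnajb9, Cct5, Nudc and Syvn1 were no longer called. From Bag3 to Dnajb9 in that order, the log2 fold changes were then -1.14, -0.45, -0.32, -1.51, -0.22 and 0.77, with adjusted p values of 0.0105 to 0.0183 in edgeR. The calls of Ier2 in the thymus, described below (adjusted p = 0.0577, edgeR), and of Hspbp1 in the spleen (adjusted p = 0.0186, edgeR) were lost as well. The part of GC content in these results was not tested further.

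Immediate early genes were examined because, like inducible Hsp70, many of them are known to rise in cells under acute stress. In the thymus 2 of 22 tested fell by edgeR at an adjusted p under 0.01 (9.09%, beside 2.99% of all genes), Klf2 (380 to 264 CPM, log2 fold change -0.53, SE 0.0903) and Ier2 (104 to 79.8 CPM, -0.38, SE 0.0813). These calls were lost in 4 and 8 of the 10 fits without 1 mouse. By DESeq2 3 fell, and 7 were lower at an unadjusted p under 0.05 in edgeR, while none rose by either tool or at that p.

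The AP-1 genes Fos, Fosb and Jun, named after their values were seen, were not called, although their thymic log2 fold changes were larger, at -1.16 (SE 0.512, adjusted p = 0.117, edgeR), -2.0 (SE 0.691, adjusted p = 0.0531) and -1.41 (SE 0.369, adjusted p = 0.0192). Fosb had 154.5, 145, 154, 6.92 and 18.2 CPM in thymic WT mice 1 to 5 and 11.9, 26.6, 15.0, 39.5 and 25.9 CPM in KO mice 1 to 5. Jun had 161, 197, 174, 35.5 and 71.2 CPM in WT and 49.1, 56.1, 38.7, 56.9 and 39.1 CPM in KO, and Fos had 120.4, 124, 146, 11.2 and 30.8 CPM in WT and 31.1 to 47.0 CPM in KO. For all 3 genes WT mice 1 to 3 were above every KO mouse and WT mouse 4 was the lowest of all 10 thymic mice. For the sum of Hspa1a and Hspa1b, WT mice 4 and 5 were the lowest of the WT mice and lay above every KO mouse.

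In the spleen Fosb was at 112 to 169 CPM in WT and 71.0 to 147 CPM in KO. Of 23 tested genes of the list 1 fell there (4.35%, beside 3.55% of all genes), Nfkbiz (-0.31, SE 0.0703), and 5 rose (21.7%, beside 5.9%), led by Ier3 (1.18, SE 0.278), Fosl2 (0.88, SE 0.0919) and Egr2 (0.65, SE 0.0905). The calls of Nfkbiz and Ier3 were lost in 4 and 7 of the 8 fits without 1 splenic mouse. The part of cell preparation in the levels of Hspa1a and Hspa1b was not tested.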

How the data were processed

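RNA was extracted from sorted Tregs of 18 mice, and ribosomal RNA was depleted before library preparation. The authors aligned the reads with STAR 2.5.0b to GRCm38, counted reads per gene with featureCounts 1.5.0 and deposited raw counts of 50600 genes without normalization. Strand and multi-mapping settings of the counting are not given in the sources used here. Symbols, coordinates and GC content came from GENCODE M21, in which 50376 identifiers have a symbol.

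Each tissue was fitted alone with edgeR 4.0.16 (R 4.3.3), using TMM factors, filterByExpr, the quasi-likelihood test and Benjamini-Hochberg adjustment over all genes tested, and genes were called at an adjusted p under 0.01. The difference between tissues was fitted over all 18 samples. SEs were derived from the F statistic. CPM used the TMM factors of each tissue, and log2 CPM a prior count of 2. The scripts were tested on simulated data. DESeq2 1.42.0 and other settings were tried as alternatives. Each sample is 1 mouse, so p-values measure the spread between mice. The depth limits the low counts of Hspa1a and Hspa1b most.

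The members and the gene lists were chosen with earlier results of these data known. Named were all members, up to 3 called genes per list, tissue and direction with the largest change, up to 3 per direction for the tissue difference, and the 5 genes most like the pair. Calr, Hsf1, Hsf2, Fos, Fosb and Jun, and Pdia4 and Xbp1 beside the tissue difference, were named after their values were seen. Samples were grouped by the genotype and tissue in the labels.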

Additional observations from a re-analysis of the deposited data

Results flagged for a closer look

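In the thymic WT group, mouse 4 had the lowest Hspa5 level, 286 CPM against 352 to 366 CPM in the other 4 mice. In the splenic WT group, mouse 1 had the lowest Hspa8 level, 612 CPM against 778 to 806 CPM. Hspa1a in splenic WT mouse 4 was 0.153 CPM, which is 4 counts, against 0.0355 to 0.0414 CPM in the others. By the test used, Dixon's ratio of the gap to the range, chance marks about 1 in 20 groups, and 3 of the 40 groups of values were marked.

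The difference between KO and WT was not the same in spleen and thymus by edgeR's test of the difference for Bag3 (1.40 on the log2 scale), Sdf2l1 (1.10), Fkbp5 (0.68) and Dnajb4 (-0.48). Each value is the splenic minus the thymic log2 fold change.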

How the results depend on the processing

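The thymic log2 fold changes of the 9 members with lower values in KO stayed negative under each alternative run, and Hspa1a and Hspa1b were left out where at least 10 counts in every sample were asked for. That of Hspa8 ran from -0.04 to 0.14. Splenic Hspa5 kept its direction under all alternatives, and its call was lost with all 18 samples in 1 fit (0 members higher). Of the chaperone genes outside the 10, the 19 lower calls in the thymus became 38 at an adjusted p under 0.05, 32 with DESeq2 and 34 with all 18 samples in 1 fit, and the 1 higher call became 4 at 0.05, 3 with DESeq2 and 0 with the GC trend removed. In the spleen the 2 lower calls became 6 at 0.05, 4 with upper-quartile scaling, 5 with DESeq2, 4 without a filter and 0 with all 18 samples in 1 fit. The 7 higher calls there became 15 at 0.05, 12 without a filter and 2 with all 18 samples in 1 fit. For the tissue difference the 18 higher calls became 39 at 0.05 and 30 with DESeq2, and the 1 lower call became 3 at 0.05 and 0 with the GC trend removed. Calls over all genes moved as well. The thymic 508 lower and 539 higher became 440 and 808 with upper-quartile scaling. They became 1246 and 1517 with DESeq2 and 1585 and 1296 with all 18 samples. The splenic 620 lower and 1031 higher became 769 and 920 with upper-quartile scaling and 831 and 1315 with DESeq2. They became 888 and 1468 without a filter and 371 and 424 with all 18 samples. For the tissue difference 465 lower and 840 higher became 820 and 1368 with DESeq2. All-gene calls at 0.05 are not given. For all of these the cause was not tested.

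Leaving out each mouse in turn gave 3 to 6 thymic members lower and 0 to 1 splenic members higher. It gave 4 to 15 chaperone genes lower in the thymus, with 12, 5, 8 and 4 without WT mouse 1, 2, 3 or 5 and 6 without KO mouse 1 or 3. In the spleen it gave 0 to 3 lower, with 0 without WT mouse 3 or 4 or KO mouse 3 or 4 and 1 without WT mouse 1 or 2 or KO mouse 2, and 4 to 8 higher, with 4 without WT mouse 2, 3 or 4. For the tissue difference it gave 9 to 22 higher and 0 to 1 lower, with 9 higher without splenic KO mouse 2, 11 without splenic WT mouse 2 or KO mouse 4, and 0 lower without thymic WT mouse 2, 3, 4 or 5, thymic KO mouse 2 or 3, splenic WT mouse 2, 3 or 4, or splenic KO mouse 1, 2 or 3. The labels do not say whether the mouse numbers pair the thymic samples. Same-numbered WT and KO mice deviated from their group means with correlations of -0.29 to 0.09, which cannot settle whether they were handled together. With the mouse number as a replicate block, 5 members and 4 other chaperone genes were called lower and 0 higher in the thymus. Over all 16986 genes that fit called 158 lower and 51 higher, against 508 and 539 in the main fit. Of the 20 chaperone calls outside the members, 3 were kept. No paired analysis was run in the spleen, and none of the difference between tissues.

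Depth limits what can be said of Hspa1a and Hspa1b in the spleen and in thymic KO Tregs, and 4 or 5 mice per group limit small changes of the abundant genes.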
